A study of Mus musculus with 9 samples.

Results

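The hairpins mir-126, mir-143 and mir-145 were taken as every row that the deposited table of microRNAs (miRNAs) held for them, both arms and all shifted isomiRs, without regard to level. That gave 21 of 1308 entries, of which 5 came from mir-126, 7 from mir-143 and 9 from mir-145. An isomiR is a read class whose end is displaced from the annotated miRNA by the signed number of bases in its name, so that miR-126-3p +1 is the 3p arm displaced by 1 base. The direction that each sign stands for is not given in the sources used here. The RNA came from extracellular vesicles (EVs), the small membrane-bound particles that cells release, in cell-free bronchoalveolar lavage fluid (BALF) of female C57BL/6J mice 8 to 10 weeks of age. All mice breathed for 3 h either filtered air (FA) or ozone (O3) at 1 ppm or 2 ppm, and were lavaged 21 h later. Each exposure had 3 pools, of 4 mice each for FA and of 3 mice each for both O3 concentrations, so that pool size and O3 cannot be told apart. Levels are in RPMMM, the reads of an entry scaled to an equal total of miRNA-mapped reads in every library, which are shares of a library and not amounts per mouse, and fewer EVs from a cell type and less of a miRNA per EV cannot be told apart.

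In mammals miR-126 is the hallmark miRNA of vascular endothelium. It is encoded within Egfl7, a gene of endothelial cells, and is best known for sustaining the response of these cells to vascular endothelial growth factor. miR-143 and miR-145 are made from a shared primary transcript, are abundant in smooth muscle of vessels and airways and other mesenchymal cells, and are best known for holding smooth muscle in its contractile state. A hairpin is cut into a 5p and a 3p arm, and usually one of them is kept in far greater amount. Which cells released the EVs was not recorded in these libraries, so the names endothelial and smooth muscle rest on where the miRNAs are known to be made.

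The mir-126 hairpin is shown because both of its arms, which are separate molecules cut from one precursor, were higher at 2 ppm O3 than in FA. In mm9, the genome build of the files, it lay at chr2:26446877-26446949 on the plus strand, inside Egfl7. The annotation placed it within an exon of 1 Egfl7 transcript that is classed as a retained intron. The gene Gm20532 on the same strand also overlapped it, but no exon of that gene or of another Egfl7 transcript did. The RefSeq hairpin, given there on GRCm38.p6 at chr2:26591357-26591429, was identical base for base to the mm9 sequence. Its 3p miRNA, printed in capitals within the hairpin, covered bases 46 to 67, which is chr2:26446922-26446943 in mm9. In the mature miRNA printed after it, the capitals mark the seed, bases 2 to 8, which pairs with target messages. No other mature mouse miRNA in the RefSeq table had this seed, and the expression table held no entry of mir-126b, the hairpin annotated on the opposite strand.
mir-126a hairpin: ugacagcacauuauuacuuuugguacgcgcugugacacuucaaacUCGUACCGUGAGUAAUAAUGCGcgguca
mmu-miR-126a-3p: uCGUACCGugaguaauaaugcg

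miR-126 was higher in the EVs of mice exposed to 2 ppm O3 than in those of FA mice, on both arms. On the log scale used for the tests below, miR-126-3p was 5.0 times and miR-126-5p 5.82 times as high at 2 ppm O3 as in FA. mir-143 and mir-145 gave no entry that passed the test at either concentration. The level of miR-126-3p was 51.9, 113 and 190 RPMMM in the 3 FA pools. It was 161, 268 and 630 RPMMM at 1 ppm O3, and 532, 577 and 465 RPMMM at 2 ppm O3. All 2 ppm pools lay above all FA pools, the lowest 1 ppm pool lay below the highest FA pool, and the highest of all 9 pools was exposed to 1 ppm. As group levels, miR-126-3p stood at 118 ± 69.5 (SD, n = 3 pools) RPMMM in FA, 353 ± 245 (SD, n = 3) at 1 ppm and 525 ± 56.2 (SD, n = 3) at 2 ppm. It held place 320 in FA and place 182 at 1 ppm among the 1308 entries ordered by mean, and a higher place at 2 ppm.

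The minor arm, miR-126-5p, gave the more even pattern. Its level was 29.8, 18.1 and 54.2 RPMMM in the FA pools, 102, 97.3 and 127 RPMMM at 1 ppm and 169, 183 and 202 RPMMM at 2 ppm. The 3 exposures did not overlap, each 2 ppm pool lying above each 1 ppm pool and each 1 ppm pool above each FA pool. The group levels were 34.02 ± 18.4, 108 ± 15.8 and 185 ± 16.6 RPMMM (SD, n = 3 pools each). The isomiR miR-126-3p +1 read 29.8, 32.3 and 69.1 RPMMM in FA, 195, 57.7 and 117 RPMMM at 1 ppm and 143, 152 and 95.9 RPMMM at 2 ppm. Its 2 ppm pools all lay above FA, and a 1 ppm pool lay within the FA range. These levels rest on few reads, from 14 to 29 reads in FA for miR-126-5p and from 51 to 57 reads at 2 ppm. Reads were derived from the spacing of low values.

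**Figure D1:**
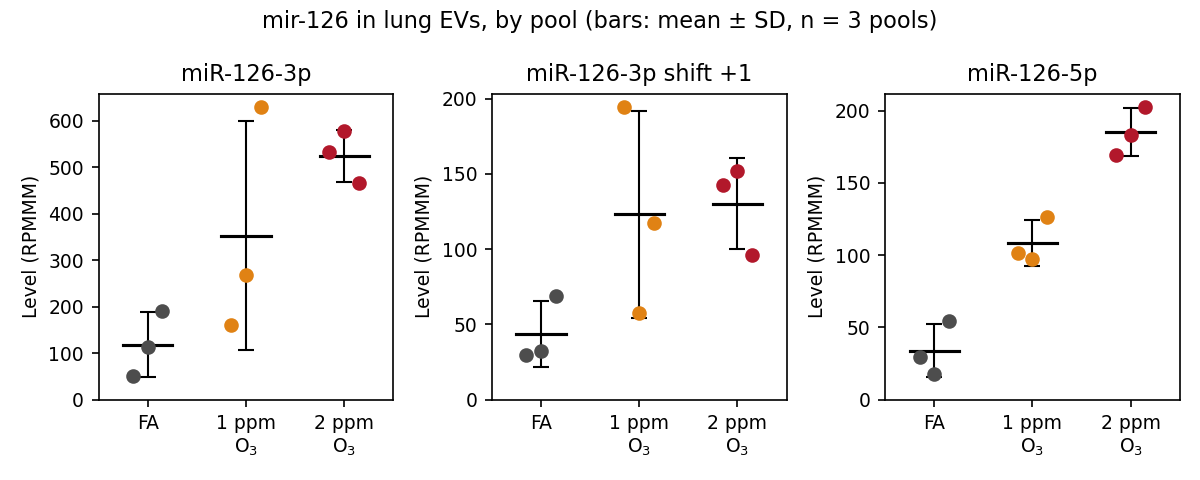
Level of the 3 tested mir-126 entries (y axis, RPMMM, linear and starting at 0) in each of 3 pools per exposure (points, x axis), with the mean and SD as bars. The 2 ppm O3 pools sit above all FA pools in each panel, and for miR-126-5p the 3 exposures are in order without overlap.

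Differences between exposures were tested on log2(RPMMM + 1) with limma over the 461 entries whose mean was above 50 RPMMM, and to pass, an entry needed an adjusted p below 0.05 together with a fold of 2 or more. Of the 21 entries, 8 met this filter on level, 3 of mir-126, 2 of mir-143 and 3 of mir-145. At 2 ppm O3 against FA the log2 fold change was 2.32 ± 0.56 (SE, adjusted p = 0.00651 from limma) for miR-126-3p and 2.54 ± 0.51 (SE, adjusted p = 0.00217 from limma) for miR-126-5p. For miR-126-3p +1 it was 1.63 ± 0.60 (SE, adjusted p = 0.0443 from limma). All 3 tested entries of mir-126 thus rose at 2 ppm, where 14.3% of the 461 entries rose and 29.3% fell. In FA the means of miR-126-5p (34.02 RPMMM) and miR-126-3p +1 (43.7 RPMMM) were below 50 RPMMM. These entries met the filter on level only through the O3 pools, so the count of 3 is not support by itself. Most entries that rose, 51 of 66, belonged to mir-2137 or the 4 hairpins mir-5115, mir-5109, mir-5105 and mir-5102. Among the 408 tested entries of all other hairpins 15 rose, or 3.68%, and 3 of these 15 were the entries of mir-126. The hairpins set apart supplied most of the rises in these same data, so this lower share follows from leaving them out. It is a description and not support for mir-126. These 3 entries share a precursor and are not independent of each other.

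At 1 ppm O3 against FA, miR-126-5p rose by a log2 fold change of 1.77 ± 0.51 (SE, adjusted p = 0.0411 from limma), a fold of 3.41, in a comparison in which 10.4% of the entries rose and 2.82% fell. This call was near the threshold. It was lost when any 1 of 8 pools was left out and held only without the third FA pool, with adjusted p between 0.0154 and 0.108 from limma over these 9 fits, and it held in 7 of 19 alternative analyses. The difference stayed positive throughout, at log2 fold changes of 1.40 to 2.16. miR-126-3p was 2.89 times as high at 1 ppm as in FA on the fitted scale, with a log2 fold change of 1.53 ± 0.56 (SE, adjusted p = 0.111 from limma), and miR-126-3p +1 had 1.41 ± 0.60 (SE, adjusted p = 0.172 from limma). Neither passed. The comparisons of 1 ppm and of 2 ppm with FA use the same 3 FA pools.

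Between the concentrations no entry of the 3 hairpins passed, against 11.3% of all entries that rose and 22.3% that fell from 1 ppm to 2 ppm. The log2 fold change was 0.79 for miR-126-3p, with a 95% interval of -0.47 to 2.06 and an adjusted p of 0.271 from limma. It was 0.77 for miR-126-5p, with a 95% interval of -0.37 to 1.92 and an adjusted p of 0.236 from limma. The intervals leave room for no difference and for more than a doubling alike. The order of the exposures was tested separately, by forming the 27 pairs that join pools of unlike exposure and counting those in which more O3 went with a higher level. miR-126-5p was in order in 27 of 27 pairs, with p = 0.00119 by an exact two-sided permutation test, the smallest p this design can give, and 0.00704 after adjustment over the 461 entries, of which 10.8% were in order in every pair. For miR-126-3p 23 of 27 pairs were in order (exact permutation p = 0.0417, adjusted p = 0.0965), and for miR-126-3p +1 22 pairs (exact permutation p = 0.0738, adjusted p = 0.145).

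The 2 untested mir-126 isomiRs were scarce. miR-126-3p −1 was listed at 0 in every FA pool, at 36.6, 21.6 and 29.0 RPMMM at 1 ppm, and at 56.5, 0 and 0 RPMMM at 2 ppm. miR-126-5p +1 was listed in a single pool, the third at 1 ppm, with 36.0 RPMMM. No entry of the table lay below about 10 reads in any library, so an entry listed at 0 may have had reads under this limit. That limit was 13.6 to 18.9 RPMMM in the FA pools, 11.8 to 18.9 RPMMM at 1 ppm and 34.3 to 37.3 RPMMM at 2 ppm, where the libraries were shallower, and the zeros at 2 ppm therefore cannot be set against levels below it.

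Summed over its entries, mir-126 stood at 112 to 314 RPMMM in FA, 445 to 938 RPMMM at 1 ppm and 764 to 912 RPMMM at 2 ppm. The sums of both O3 groups lay above FA without overlap, and the O3 groups overlapped each other. The mean log2 difference from FA was 1.72 at 1 ppm and 2.25 at 2 ppm, each with p = 0.1 by an exact two-sided permutation test, the smallest that 3 pools against 3 can give, and 0.225 after adjustment over 9 comparisons. Of 192 hairpins with a mean sum above 50 RPMMM, 10.4% lay above FA without overlap at 1 ppm and 8.85% at 2 ppm.

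How far these changes depend on scaling was examined, since each library sums to a fixed total and a rise of abundant entries lowers the share left to all others. The median log2 fold change of all tested entries at 2 ppm against FA was -0.83 on the deposited scale. After median-of-ratios scaling, which sets the typical entry equal between pools, it was -0.09, and miR-126-3p and miR-126-5p had log2 fold changes of 3.02 and 3.23. Against the typical entry of the deposited scale, miR-126-3p and miR-126-5p were higher by 3.15 and 3.37 on the log2 scale. Both passed the test at 2 ppm under all alternative analyses that listed them, 20 for miR-126-3p and 19 for miR-126-5p, with log2 fold changes of 1.83 to 3.18 and 2.17 to 3.40. miR-126-3p +1 passed in 11 of 17 and was lost with no filter on level and without the first or second FA pool, the third 1 ppm pool, or the first or second 2 ppm pool, each left out alone, at adjusted p values of 0.0566 to 0.108 from limma.

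**Figure D2:**
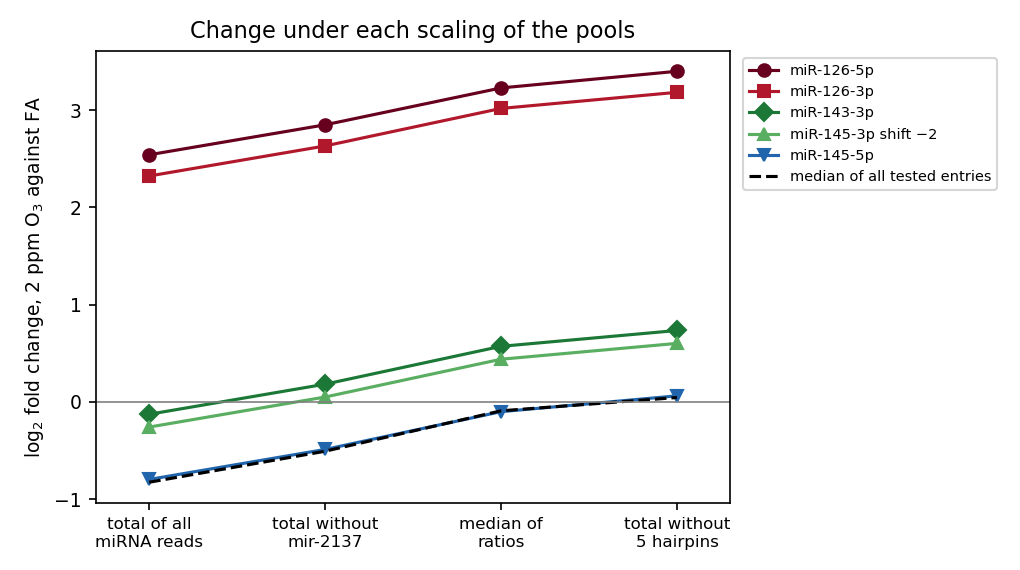
Log2 fold change at 2 ppm O3 against FA (y axis) of 5 entries and the median of all tested entries (dashed line) under 4 ways of scaling the pools (x axis). miR-126-3p and miR-126-5p lie above 2 under each scaling, while miR-143-3p and miR-145-3p −2 change sign between the deposited scale and the other 3, and miR-145-5p follows the median of all entries.

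Other vessel-related miRNAs were counted beside mir-126. In the list of 16 other hairpins with reported roles in vessels, such as mir-221 and mir-222 of endothelial growth and mir-23, mir-27 and mir-24 of angiogenesis, 46 entries were tested. At 1 ppm 2 rose and 1 fell, beside 10.4% and 2.82% of all 461 entries. At 2 ppm 3 rose and 6 fell, beside 14.3% and 29.3% of all entries, with a median log2 fold change of -0.11 beside -0.83 over all entries. The most abundant of them, miR-23a-3p, had a log2 fold change of 0.09 ± 0.10 (SE, adjusted p = 0.449 from limma) at 2 ppm. The next most abundant, miR-27b-3p, had -0.63 ± 0.10 (SE, adjusted p = 0.000461 from limma), under the 2-fold limit. The levels of miRNAs of other cells that could reach the lavage are given as sums, without a test. The red cell hairpins, with entries for 3 of 4 names in the list, summed to 884 to 1822 RPMMM in the FA pools, 150 to 343 RPMMM at 1 ppm and 158 to 948 RPMMM at 2 ppm. At 2 ppm the red cell sums overlapped those of FA. How many of all hairpins lay below FA at 1 ppm was not counted, so the lower red cell sums there are given as levels only. The summed leukocyte hairpins mir-142, mir-223 and mir-150 held 1431 to 2129 RPMMM in FA, 1848 to 2362 RPMMM at 1 ppm and 1285 to 1463 RPMMM at 2 ppm. The 5 epithelial hairpins of the miR-200 family summed to 64849 to 69404 RPMMM in FA, 51325 to 56129 RPMMM at 1 ppm and 26265 to 30242 RPMMM at 2 ppm. Of 192 hairpins with a mean sum above 50 RPMMM, 56.8% lay below FA without overlap at 2 ppm. The ciliated cell hairpins, with entries for 4 of 5 names, summed to 11050 to 16603 RPMMM in FA, 5984 to 10677 RPMMM at 1 ppm and 11857 to 13778 RPMMM at 2 ppm. The part of these other sources in the level of miR-126 was not tested.

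Over the 9 pools, the tested entries of other hairpins most like miR-126-3p were mir-5102 (Pearson r = 0.90 on the log2 scale), mir-5105 +5 (r = 0.89) and mir-5105 −6 (r = 0.87). Those most like miR-126-5p were mir-5105 −6 (r = 0.98), mir-5109 +4 (r = 0.95) and mir-5105 −2 (r = 0.95). The 9 points are 3 pools of each exposure, so entries that differ between exposures in the same direction score high here whatever else they share.

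Within the hairpin, the 2 arms of mir-126 kept their proportion within the spread of the pools. The summed 3p entries were 2.74, 8.00 and 4.79 times the summed 5p entries in the FA pools, between 3.57 and 4.77 times at 1 ppm and between 2.77 and 4.31 times at 2 ppm. The 3 exposures overlapped, and the lowest and the highest ratio of all pools were both in FA. The mean log2 ratio was lower than FA by 0.22 at 1 ppm and by 0.38 at 2 ppm (exact permutation p = 0.7 and 0.5, adjusted p = 0.84 for both). Without the second FA pool, the highest, the differences were 0.16 and 0.00034 in the opposite direction. At 34.1%, arm ratios without overlap between FA and 2 ppm were common among the 41 hairpins in which both arms were above 0 in all pools.

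The isomiR miR-126-3p +1 took an unequal part of its arm. In the first 1 ppm pool it held 117 of 236 reads, 49.6% of the 3p arm (95% Wilson interval 43.3% to 55.9%), and in the other two 1 ppm pools 16.6% (12.0% to 22.5%) and 15.1% (12.6% to 18.0%). The first pool lay above the intervals of the other two, and it is named because it stood apart from them. Its interval overlapped that of the first FA pool, 25.7% to 48.9%. In FA the share was 36.5%, 22.3% and 26.6%, and at 2 ppm 19.5%, 20.9% and 17.1%. The 2 ppm shares lay below the FA shares without overlap, with a mean difference of -9.32 percentage points (exact permutation p = 0.1, adjusted p = 0.9 over 9 comparisons). Of all isomiRs tested for such a share, 20 or 9.05% lay below FA without overlap at 2 ppm. Intervals cover counting error only, since reads are not independent molecules. They rest on read counts derived from the spacing of low values, which were not given directly.

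**Figure D3:**
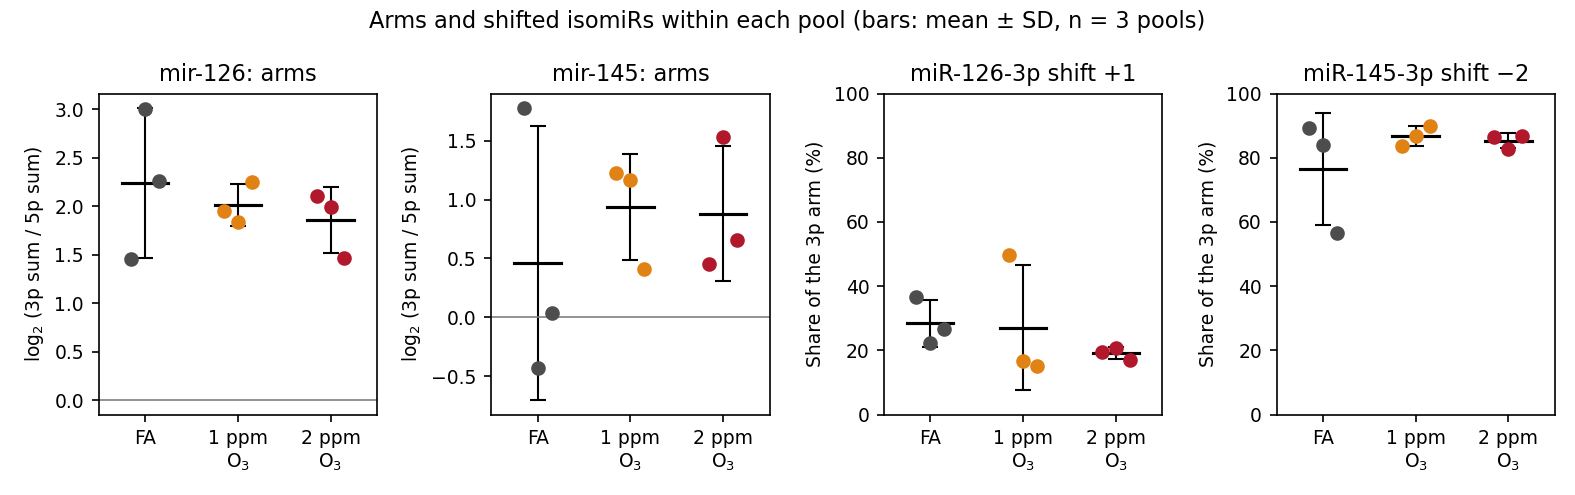
Left pair of panels, log2 ratio of summed 3p to summed 5p entries of mir-126 and mir-145 (y axis) by pool. Right pair, share of the 3p arm (y axis, percent, 0 to 100) held by miR-126-3p +1 and miR-145-3p −2. Points are pools, bars mean and SD (n = 3). The arm ratios of the exposures overlap, 1 pool at 1 ppm stands at 49.6% for miR-126-3p +1, and miR-145-3p −2 holds more than 56% of its arm in every pool.

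mir-143 and mir-145 lie beside each other on the minus strand of chromosome 18 in mm9, at chr18:61808850-61808912 and chr18:61807470-61807557, with 1292 bases between them and with no other annotated gene at either position. Their entries did not follow the pattern of miR-126. miR-143-3p, the main arm, was far the most abundant of the 21 entries, in place 37 of 1308 by its mean in FA, 35 at 1 ppm and 49 at 2 ppm. Its level was 4033, 3422 and 9990 RPMMM in the FA pools, 7650, 5174 and 5588 RPMMM at 1 ppm and 4696, 4787 and 4712 RPMMM at 2 ppm. The third FA pool was the highest of all 9 and the other two FA pools the lowest, so that both O3 groups lay inside the FA range, and the 2 ppm pools all lay below the 1 ppm pools. The spread of the 2 ppm pools was small, at 4731 ± 48.9 RPMMM, beside 5815 ± 3628 in FA and 6137 ± 1327 at 1 ppm (SD, n = 3 pools each).

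On the log2 scale miR-143-3p differed from FA by 0.23 at 1 ppm, with a 95% interval of -0.54 to 1.00 (adjusted p = 0.779 from limma). At 2 ppm the difference was -0.13, with an interval of -0.90 to 0.65 (adjusted p = 0.766 from limma), and it was positive, from 0.18 to 0.73, under the 3 other scalings. From 1 ppm to 2 ppm it was -0.35 (interval -1.13 to 0.42, adjusted p = 0.413 from limma), and 0.26 under median-of-ratios scaling. Both values against FA depended on single FA pools. Without the second FA pool they were -0.070 at 1 ppm and -0.42 at 2 ppm. Leaving out the third FA pool moved both values the most. Without it the log2 fold change of miR-143-3p was 0.70 at 1 ppm (adjusted p = 0.0307 from limma, under the 2-fold limit) and 0.35 at 2 ppm (adjusted p = 0.136 from limma). This pool was also the highest of all in the summed striated muscle hairpins, of which 5 of 7 names had entries, with 6029 RPMMM beside 235 and 1168 in the other FA pools, 146 to 217 at 1 ppm and 0 to 179 at 2 ppm. It was the highest FA pool in mir-126 and in the red cell, epithelial and ciliated cell hairpins as well. In the leukocyte hairpins it was not, with 1630 RPMMM beside 2129 in the first FA pool. What sets it apart was not tested.

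The 5p arm of mir-143 was close to the limit of listing. miR-143-5p was at 16.9, 42.7 and 39.2 RPMMM in FA, from 13 to 33 reads, was listed at 0 in all 1 ppm pools, and at 36.6, 0 and 0 RPMMM at 2 ppm. The second FA pool and the third lay above the highest listing limit of the 1 ppm libraries, and the first FA pool within the range of these limits. With the 3p arm 81.7 to 261 times the 5p arm in FA, mir-143 was the most one-sided of the 3 hairpins, and its arm ratio could not be compared between exposures. The shifted entries held little of the 3p arm, 1.374% to 4.39% in any pool. miR-143-3p +1, the only one tested, was at 41.4 to 176 RPMMM in FA, 21.6 to 141.4 RPMMM at 1 ppm and 63.9 to 113 RPMMM at 2 ppm, and did not pass in either comparison with FA (adjusted p = 0.964 and 0.999 from limma). The other 4, +2, +3, +4 and −1, were listed in 5, 3, 1 and 6 of 9 pools and reached at most 141.4 RPMMM.

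**Figure D4:**
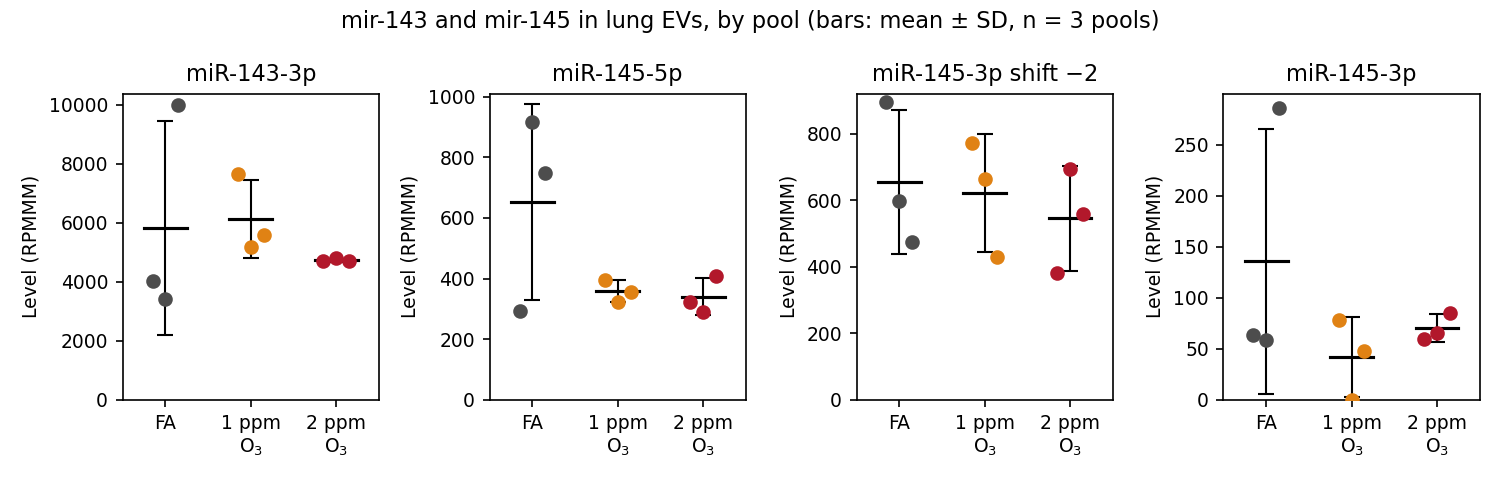
Level of miR-143-3p, miR-145-5p, miR-145-3p −2 and miR-145-3p (y axis, RPMMM, linear and starting at 0) in each of 3 pools per exposure (points, x axis), with the mean and SD as bars. The third FA pool stands alone for miR-143-3p, at 9990 RPMMM, and for miR-145-3p, at 286 RPMMM, and in all 4 panels both O3 groups overlap FA.

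Unlike its neighbour, mir-145 gave comparable reads from both arms. miR-145-5p, commonly taken as its main product, was at 293, 918 and 747 RPMMM in FA, 394, 322.5 and 357 RPMMM at 1 ppm and 322.4, 290.2 and 408 RPMMM at 2 ppm. The first FA pool stood at the level of the O3 pools and the other two above all of them. The log2 fold change against FA was -0.71 ± 0.39 (SE, adjusted p = 0.297 from limma) at 1 ppm and -0.80 ± 0.39 (SE, adjusted p = 0.107 from limma) at 2 ppm. The second value was close to the median of all entries, -0.83, and it was 0.063 when the totals were taken without mir-2137 and the other 4 hairpins. Without the first FA pool miR-145-5p passed as lower at both concentrations, with log2 fold changes of -1.21 (adjusted p = 0.0101 from limma) and -1.30 (adjusted p = 0.00255 from limma).

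The 3p arm of mir-145 was carried by an isomiR. miR-145-3p −2 was at 895, 597 and 474 RPMMM in FA, 772, 665 and 427 RPMMM at 1 ppm and 382, 694 and 558 RPMMM at 2 ppm. The unshifted miR-145-3p was at 63.5, 58.2 and 286 RPMMM in FA, 78.2, 0 and 47.6 RPMMM at 1 ppm and 59.8, 65.7 and 85.3 RPMMM at 2 ppm. In each of the 9 pools the isomiR exceeded the unshifted entry, holding 56.4% to 90.0% of the arm, the lowest share being that of the third FA pool. Of 252 arms with a mean above 50 RPMMM, 8 had an isomiR above the unshifted entry in every pool, or 3.17%. The share of miR-145-3p −2 did not differ between exposures beyond the spread of the pools (exact permutation p of 0.5 at 1 ppm and 0.7 at 2 ppm against FA, adjusted p = 1 for both).

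Neither entry passed the test. For miR-145-3p −2 the log2 fold change against FA was -0.07 at 1 ppm (95% interval -0.81 to 0.67, adjusted p = 0.952 from limma) and -0.26 at 2 ppm (interval -0.99 to 0.48, adjusted p = 0.502 from limma), and the value at 2 ppm was positive, from 0.050 to 0.60, under the 3 other scalings. For the unshifted miR-145-3p it was -2.72 at 1 ppm (95% interval -6.11 to 0.67, adjusted p = 0.308 from limma), a value set largely by the second 1 ppm pool, listed at 0, and -0.73 without that pool. At 2 ppm it was -0.55 (interval -3.94 to 2.84, adjusted p = 0.769 from limma). These intervals are too wide to tell a large change from none. The other 6 entries of mir-145 were not tested. miR-145-3p −1 was listed in 6 pools, at up to 80.3 RPMMM, miR-145-5p +1 in 3 pools and the remaining 4 entries in 1 pool each.

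**Figure D5:**
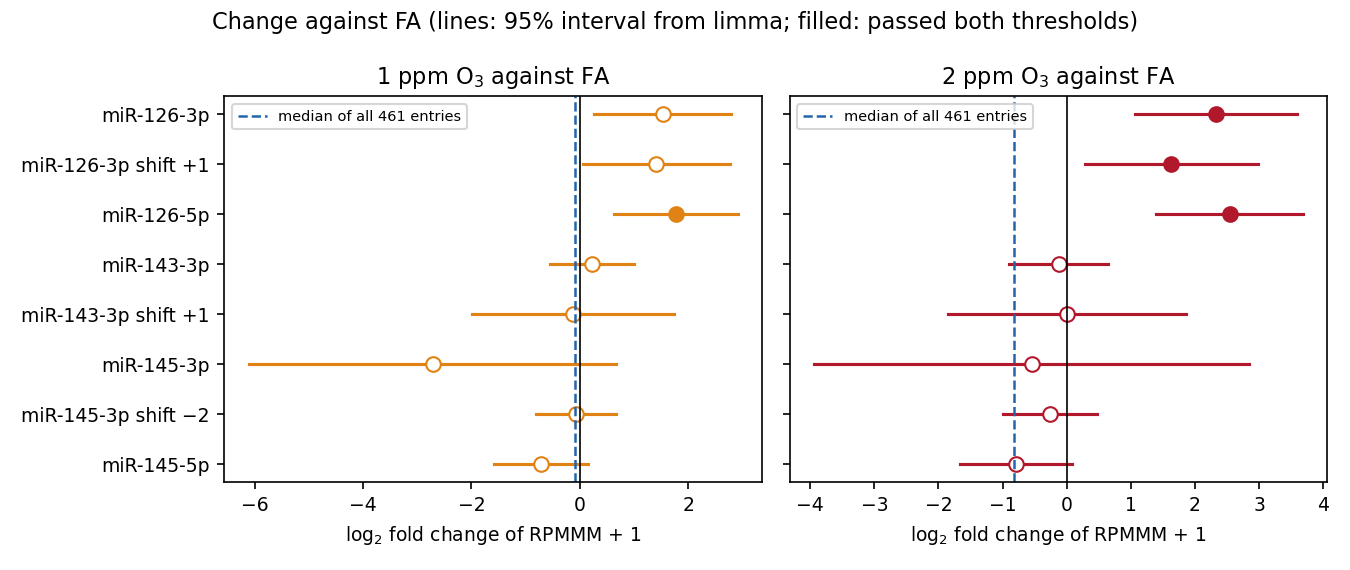
Log2 fold change of RPMMM + 1 against FA (x axis) for the 8 tested entries (y axis) at 1 ppm and 2 ppm O3, with 95% intervals from limma. Filled points passed both thresholds, and the dashed line is the median of all 461 entries. The mir-126 entries lie to the right of 0 in both panels, while the intervals of all mir-143 and mir-145 entries include 0.

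The arms of mir-145 were close in level, with 3p sums of 0.741 to 3.42 times the 5p sums in FA, 1.33 to 2.34 at 1 ppm and 1.371 to 2.89 at 2 ppm. The first FA pool was the highest and the second the lowest of all 9. The mean log2 ratio was higher than FA by 0.47 at 1 ppm and by 0.42 at 2 ppm, within the spread of the FA pools (exact permutation p = 0.6 and adjusted p = 0.84 for both). Summed over its entries, mir-145 stood at 1297 to 1675 RPMMM in FA, 832 to 1318 RPMMM at 1 ppm and 764 to 1130 RPMMM at 2 ppm. The 2 ppm sums lay below FA without overlap, by a log2 difference of -0.66 (exact permutation p = 0.1, adjusted p = 0.225), as did those of 56.8% of the 192 hairpins, and the sign turned under median-of-ratios scaling, at 0.036. The sums of mir-143 at both concentrations overlapped those of FA, with log2 differences from FA of 0.23 at 1 ppm and -0.12 at 2 ppm (exact permutation p = 0.7 and 1), and the second was positive under the 3 other scalings. Between the concentrations they did not overlap, at 5246 to 8002 RPMMM at 1 ppm and 4895 to 4925 RPMMM at 2 ppm, a log2 difference of -0.35 (exact permutation p = 0.1, adjusted p = 0.225). Of the 192 hairpins 54.2% lay below 1 ppm at 2 ppm without overlap, and the sign for mir-143 turned under median-of-ratios scaling, at 0.27.

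Although mir-143 and mir-145 share a transcript, no correlation of their sums was found over the 9 pools, which are too few to show that there is none. The ratio of the mir-143 sum to the mir-145 sum ran from 2.11 to 6.20 in FA, from 4.73 to 6.98 at 1 ppm and from 4.34 to 6.40 at 2 ppm. Over the 9 pools the sums had Pearson r = 0.18 (permutation p = 0.661, adjusted p = 0.852) and Spearman rho = 0.00 (permutation p = 1). Without the 2 pools farthest from the median of mir-143, the third FA pool and the first 1 ppm pool, r was -0.83, so that the value rests on those pools. miR-143-3p and miR-145-5p, the usual main products, had r = 0.16 (permutation p = 0.712) and rho = 0.15 (permutation p = 0.708), and the arms of mir-145 had r = 0.09 (permutation p = 0.852) and rho = -0.12 (permutation p = 0.776). These 3 relations were chosen after the levels had been seen.

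The entries most alike were picked as the highest of 458 or 459 correlations each, so their size says nothing by itself. Most like miR-143-3p over the 9 pools were miR-21-3p (r = 0.79 on the log2 scale), the 3p arm of mir-199a-2 (r = 0.70) and miR-1839-5p (r = 0.68). miR-145-5p was most like miR-125a-3p (r = 0.87), miR-29a-3p (r = 0.86) and let-7c-1-3p (r = 0.84). The unshifted miR-145-3p was most like miR-760-3p −1 (r = 0.95), miR-1964-3p (r = 0.95) and miR-671-5p (r = 0.86). In the list of 13 other hairpins taken for smooth muscle and mesenchymal cells, 12 had entries, and 30 entries were tested. The mir-1a and mir-133a hairpins of this list were also part of the striated muscle sum given above, so the list is not particular to smooth muscle. None passed at 1 ppm, and at 2 ppm 0 rose and 8 fell, beside 14.3% and 29.3% of all 461 entries, with a median log2 fold change of -0.89 beside -0.83 over all entries. Its most abundant entries were miR-21-5p, raised in many injured tissues, with a log2 fold change of -0.74 ± 0.10 (SE, adjusted p = 0.000174 from limma) at 2 ppm, and miR-26a-5p from mir-26a-2, with -1.06 ± 0.08 (SE, adjusted p = 3.26e-06 from limma).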

How the data were processed

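Small RNA of BALF EVs was sequenced by the authors in 9 pools, and reads were trimmed, aligned to mm9 and counted with miRquant 2.0. The deposited values are RPMMM, that is RPM of miRNA-mapped reads, and each pool sums to the same total over its 1308 entries. The number of miRNA reads of each library is not in the table. From the spacing of low values, which fell on whole steps for 68.5% to 83.7% of them, it came to 535534 to 773268 miRNA reads in FA, 555107 to 860962 at 1 ppm and 281538 to 300916 at 2 ppm, and 103 of the 108 values above 0 of the 3 hairpins, out of 189, lay within 0.05 of a whole read.

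Entries with a mean above 50 RPMMM (461) were fitted on log2(RPMMM + 1) with limma 3.58.1 in R 4.3.3, with a variance trend, 1 mean per exposure and Benjamini-Hochberg adjustment over all 461. The script was tested on simulated data. Ratios, sums, shares and order were compared by exact two-sided permutation tests over pools in Python 3.11.15 with scipy 1.17.1, and the order test was adjusted over all 461 entries, not over the 8 entries alone as first laid down. Every entry of the 3 hairpins was named, together with the 3 entries most like each tested unshifted one, and the lists gave up to 2 entries of highest mean. Hairpins were matched to RefSeq by name, 3 of 3. The members and lists were chosen with earlier results of these data known. The study's record of exposures lists 2 for FA and 1 at each O3 concentration, and does not tie pools to them, so pools of a concentration may share an exposure and p-values measure only the spread between pools. The alternatives were other pseudocounts (0.5, 10), filters (none, 200), scalings, treatments of isomiRs and fits, and leaving out each pool.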

Additional observations from a re-analysis of the deposited data

How the results depend on the processing

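The rise of miR-126-3p and miR-126-5p at 2 ppm O3 kept its direction and passed in each alternative that lists them. The number of entries of the 3 hairpins that rose at 1 ppm was 0 in place of 1 with no filter, with a mean above 200 RPMMM, with each mature miRNA once or with only the 2 exposures fitted, and 0 to 1 with single pools left out. With isomiRs summed it stayed at 1, but the entry was miR-126-3p and not miR-126-5p. At 2 ppm it was 1 in place of 3 with a mean above 200 RPMMM, where fewer entries were tested. The number that fell was 0 to 1 with single pools left out, at each concentration. Counts over all entries moved too. At 1 ppm 13 entries passed with each mature miRNA once and 16 with isomiRs summed. At 2 ppm against FA 121 passed with median-of-ratios scaling, 126 with totals without the 5 hairpins, 86 with each mature miRNA once and 110 with isomiRs summed. At 2 ppm against 1 ppm these were 82, 85, 60 and 75, and 102 to 146 with single pools left out. With each mature miRNA once or isomiRs summed fewer entries were tested. The split at 2 ppm against FA was 66 higher and 135 lower as deposited, 76 and 97 without mir-2137, 87 and 34 with median-of-ratios scaling, and 98 and 28 without the 5 hairpins.

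Signs that turned belonged to differences that had not passed. For median-of-ratios scaling, totals without mir-2137 and totals without the 5 hairpins in turn, the log2 fold change at 2 ppm against FA was 0.57, 0.18 and 0.73 for miR-143-3p and 0.44, 0.050 and 0.60 for miR-145-3p −2. The mir-143 sum gave 0.58, 0.19 and 0.74. For miR-143-3p 20, 18 and 20 of 27 pairs were in order (exact permutation p = 0.189, 0.388 and 0.189). On the deposited scale 12 pairs were (exact permutation p = 0.831). For the first and last of these scalings the log2 fold change was 0.14 and 0.30 for miR-145-3p and 0.036 and 0.20 for the mir-145 sum. It was 0.014 and 0.044 for miR-145-3p −2 at 1 ppm. For miR-145-5p 15 pairs were in order under both, beside 8 on the deposited scale (exact permutation p = 0.277). At 2 ppm against 1 ppm these scalings gave 0.26 and 0.39 for miR-143-3p and 0.27 and 0.40 for the mir-143 sum. miR-145-5p gave 0.063 under the last. With unshifted entries only, the log2 arm ratio differed by 0.019 (mir-126) and 0.34 (mir-145) between 2 ppm and 1 ppm, and by -0.10 for mir-145 between 1 ppm and FA. With single pools left out, the log2 fold change ran from -0.070 to 0.70 at 1 ppm and -0.42 to 0.35 at 2 ppm for miR-143-3p, and from -0.068 to 0.70 and -0.42 to 0.36 for the mir-143 sum. It ran from -0.28 to 0.18 for miR-145-3p −2 at 1 ppm, from -0.95 to 0.19 for miR-145-3p at 2 ppm, and from -0.24 to 0.63 for miR-126-3p +1 between 2 ppm and 1 ppm. The difference in the mir-126 arm ratio ran from -0.62 to 0.16 (1 ppm against FA), -0.77 to 0.00034 (2 ppm against FA) and -0.28 to 0.036 (2 ppm against 1 ppm), and in the mir-145 arm ratio from -0.027 to 1.08 (2 ppm against FA) and -0.38 to 0.16 (2 ppm against 1 ppm). The causes were not tested.

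For the values given above, the other alternatives run turned no sign unless a pool was left out. Depth limits the scarce entries: 13 of 21 were below the filter, and a value listed at 0 at 2 ppm may hide up to about 10 reads. With 3 pools an exposure, exact tests between 2 exposures could not go below 0.1, and shares of a library cannot show whether the amount of miR-126 per mouse changed. No paired analysis was possible because the labels give no replicate numbers that the exposures share.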
